A study of Mus musculus with 6 samples.

Results

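The collagen IV chains are the 6 genes Col4a1 to Col4a6, and they were taken as the rows of the deposited expression table that carry these gene names. All 6 were found among the 54532 genes of the table. They were chosen by their measured counts in this same comparison, induced against control, so their own values are given as a description, without p-values. The cells were immortalized cardiosphere-derived cells (iCDCs) of C57BL/6 mice, labelled as heart ventricle, which were grown from epicardial explants, carried an hTERT lentivirus and had been selected with puromycin. RNA was sequenced from 3 control libraries of iCDCs at passage 30 and from 3 induced libraries of iCDCs of the same passage that received 5-azacytidine (5-aza), an inhibitor of DNA methylation. By the labels, the dose was 10 µM over 3 days and was followed by 4 weeks of culture at 2% FBS, while the methods of the study give another medium and duration, and describe routine passaging of the line in a medium with more serum than the induced cells received. Neither source states for how long, or whether in that medium, the sequenced control cells were kept. Drug, serum and time in culture therefore cannot be told apart, and all values come from 1 immortalized line. The labels name 3 separate samples per group but not separate cultures, so p-values measure the spread between these samples, which may be technical.

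Collagen IV is the network-forming collagen of basement membranes, the thin matrix sheets under epithelia and endothelia and around muscle and fat cells. Each molecule is a trimer of alpha chains that is assembled inside the cell, secreted and linked end to end into a sheet. Col4a1 and Col4a2 encode the chains of the network found in nearly every basement membrane, Col4a3 and Col4a4 join Col4a5 in the network of the kidney glomerulus and a few other tissues, and Col4a6 joins Col4a5 around smooth muscle and in some epithelia. Mutations of the human counterparts of Col4a3, Col4a4 and Col4a5 cause Alport syndrome, and those of Col4a1 and Col4a2 cause disease of small vessels of the brain. The genes lie in 3 head-to-head pairs, each transcribed outward from a common start region.

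The start regions are shown because the head-to-head arrangement and the CpG dinucleotides, the sites of DNA methylation, differ between the pairs. DNA methylation itself was not measured in these libraries, and a link between CpG content and the fold changes was not tested. Col4a1 (ENSMUSG00000031502, chromosome 8, 11198423 to 11312826, minus strand) and Col4a2 (ENSMUSG00000031503, chromosome 8, 11312805 to 11449287, plus strand) overlap by 22 bases at their annotated starts. Col4a4 (ENSMUSG00000067158, chromosome 1, 82448423 to 82586849, minus strand) and Col4a3 (ENSMUSG00000079465, chromosome 1, 82586921 to 82722059, plus strand) are 71 bases apart, and Col4a6 (ENSMUSG00000031273, chromosome X, 141165403 to 141474076, minus strand) and Col4a5 (ENSMUSG00000031274, chromosome X, 141475385 to 141689234, plus strand) are 1308 bases apart. The gene coordinates are those of the deposited table, for GRCm38 (mm10). The sequences below are RefSeq sequences of GRCm38.p6, written 5′ to 3′ with each CpG in capitals. They are the 22 bases of exon that Col4a1 and Col4a2 share (chr8:11312805-11312826, plus strand), the whole interval between Col4a4 and Col4a3 (chr1:82586850-82586920, minus strand), the 216 bases before the annotated start of Col4a5 (chrX:141475169-141475384, plus strand) and the 250 bases before that of Col4a6 (chrX:141474077-141474326, minus strand).
Col4a1/Col4a2 shared bases: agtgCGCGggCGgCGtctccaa
Col4a4/Col4a3 interval: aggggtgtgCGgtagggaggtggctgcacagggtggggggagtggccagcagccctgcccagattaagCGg
Col4a5 upstream: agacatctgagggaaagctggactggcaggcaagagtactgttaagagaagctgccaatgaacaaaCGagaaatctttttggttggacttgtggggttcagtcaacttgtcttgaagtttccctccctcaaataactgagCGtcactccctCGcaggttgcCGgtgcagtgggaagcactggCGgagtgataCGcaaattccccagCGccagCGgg
Col4a6 upstream: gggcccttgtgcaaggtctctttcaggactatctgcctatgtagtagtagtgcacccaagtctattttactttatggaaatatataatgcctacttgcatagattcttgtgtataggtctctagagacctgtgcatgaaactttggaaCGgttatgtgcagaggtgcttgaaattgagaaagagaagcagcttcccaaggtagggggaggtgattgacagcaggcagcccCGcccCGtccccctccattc

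The 22 bases shared by Col4a1 and Col4a2 held 4 CpG, and the 71 bases between Col4a4 and Col4a3 held 2. Counted over RefSeq promoter windows of 300 bases (250 before to 50 after the RefSeq start), Col4a1 had 37 CpG and Col4a2 had 33, against a median of 7 over 32841 windows of the mouse. More CpG than in the Col4a1 window were found in 4.95% of all windows, and more than in the Col4a2 window in 7.73%. The Col4a4 window, which contains the annotated start of Col4a3, had 14 CpG, and the Col4a5 window had 11, with more in 34.6% and 39.6% of all windows. The Col4a6 window had 3 CpG, below the median. The Col4a1 and Col4a2 windows overlap, so their CpG counts are not separate. In each of these windows 272 bases are annotated exon of the partner gene, 45 of them coding in the Col4a2 window. Of the Col4a4 window, 179 bases are annotated exon of Col4a3. The RefSeq start was that of the deposited table for the other chains with a window, but lay 34 bases inside the gene for Col4a5, so that its window held 216 bases before and 84 from the start given above. The ratio of observed to expected CpG was 0.902 for Col4a1, 0.818 for Col4a2, 0.489 for Col4a4, 0.561 for Col4a5 and 0.172 for Col4a6, against a median of 0.384. The Col4a1/Col4a2 region was therefore the richest in CpG of the 3, and the other pairs lay nearer to the middle of all promoters.

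**Figure D1:**
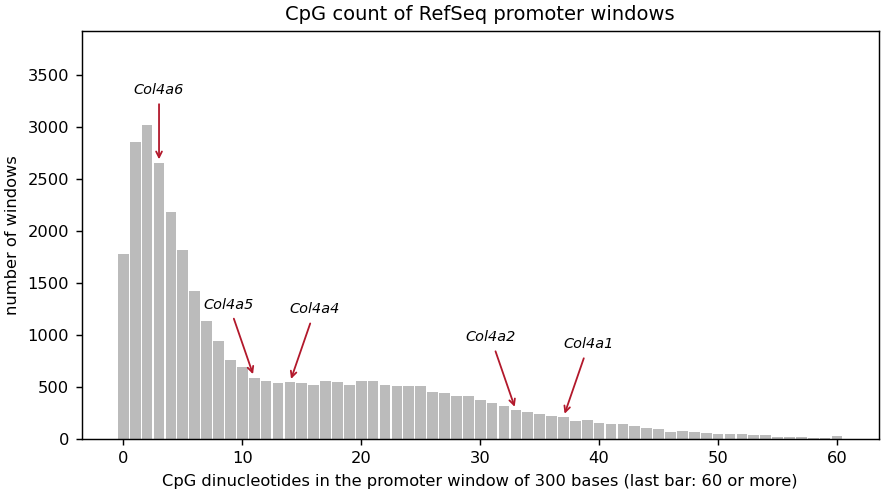
CpG dinucleotides per RefSeq promoter window of 300 bases (horizontal axis, with 60 or more in the last bar) against the number of windows (vertical axis), for 32841 mouse windows in grey, with arrows at the windows of 5 collagen IV chains. Col4a1 with 37 and Col4a2 with 33 lie in the upper tail, Col4a4 with 14 and Col4a5 with 11 between, and Col4a6 with 3 under the median of 7.

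Letters of 3 promoter motifs were searched on both strands of the windows, and their positions are counted from the gene starts given above. The CCAAT box (CCAAT) occurred in the windows of Col4a1, 145 bases before the start and on the opposite strand, of Col4a2, 32 bases before the start, and of Col4a5, 162 bases before it. The GC box (GGGCGG) occurred in Col4a1 from base 10 of the transcript on the opposite strand, in Col4a2 at 192 bases before the start, at 48 bases on the opposite strand and from base 8 of the transcript, in Col4a5 from base 5 of the gene, and in Col4a6 at 21 bases before the start on the opposite strand. The letters CCCCTCCC, known from the shared Col4a1/Col4a2 start region as the CTC box and added after the sequences had been read, occurred 14 bases before the start of Col4a2, in Col4a1 from base 29 on the opposite strand, and from 2 bases before the start of Col4a5 into the gene on the opposite strand. The Col4a1 and Col4a2 windows overlap, so some sites were read from both. The CCCCTCCC of these windows is the same site. So is the GGGCGG from base 10 of Col4a1 and from base 8 of Col4a2. Among all windows, 37.4% held CCAAT, 35.7% GGGCGG and 12.2% CCCCTCCC, and motifs overlapping another were counted separately. None of the 3 strings of letters was found in the Col4a4 window.

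The RNA of all 6 chains was higher in induced than in control iCDCs. The largest differences were those of the Col4a3/Col4a4 pair, at 51.5-fold and 26.3-fold, followed by Col4a1 and Col4a2 at 4.07-fold and 3.69-fold, and the X-linked pair Col4a5 and Col4a6 rose least, at 1.82-fold and 1.67-fold. In the fit over all genes (edgeR quasi-likelihood test, Benjamini-Hochberg adjusted p under 0.05), all 6 chains were called higher, where 32.6% of the 14246 genes tested were called higher and 64.8% were called in either direction. The 3 libraries of each group did not overlap for any of the 6 chains, with every induced library above every control library, which held for 34.1% of all genes tested. All 6 chains had at least 16 reads in every library and passed the filter on low counts. The chains were chosen on this contrast, and nothing is read from these counts.

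The Col4a3/Col4a4 pair was barely transcribed in control cells. Col4a3, whose chain is the antigen of the autoantibodies of Goodpasture disease, had 18, 16 and 18 reads in the control libraries and 784, 979 and 826 in the induced ones. On the scale of FPKM, the deposited level scaled by gene length and library depth, its level was 0.0907, 0.0809 and 0.0898 in control and 4.18, 5.15 and 4.34 in induced libraries. Every induced library was thus far above the control range, and induced 2 was the highest. The log2 fold change was 5.69 (SE 0.138), and 0.674% of tested genes had a larger one. Its partner Col4a4 had 62, 77 and 83 reads in control and 1809, 1972 and 1836 in induced libraries. Its FPKM was 0.293, 0.365 and 0.389 in control and 9.05, 9.74 and 9.06 in induced libraries, a log2 fold change of 4.72 (SE 0.084), with 0.962% of genes above it. Control 1 was the lowest of the control libraries, and the control values of Col4a4 varied most of all 12 sets of replicates, with a coefficient of variation of 14.2%. For Col4a3, 5.65% of its exon bases overlap the antisense gene C430014B12Rik, which had too few reads to be tested, and the strand setting of the counting is not given in the sources used here. No exon base of Col4a4 overlaps another gene.

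Col4a1 and Col4a2 were already abundant in control cells. Col4a1, which supplies most of the chains of the common network, had 17097, 16286 and 17370 reads in control and 68085, 67174 and 62771 in induced libraries. Its FPKM was 115.0, 109.9 and 115.7 in control and 484.5, 471.7 and 440.4 in induced libraries, a log2 fold change of 2.02 (SE 0.045). The groups were well apart, and the replicates of each group lay within 1.1-fold of each other. By FPKM it moved from ranks 388 to 417 among all genes of the control libraries to ranks 71 to 94 in the induced ones. Col4a2, the second chain of that network, had 11105, 10703 and 11799 reads in control and 41718, 39460 and 37794 in induced libraries. Its FPKM was 84.2, 81.4 and 88.6 in control and 334.7, 312.5 and 299.0 in induced libraries, a log2 fold change of 1.88 (SE 0.049), and its rank moved from 540 to 577 up to 126 to 156. For both genes induced 3 was the lowest induced library. The 22 shared exon bases are 0.295% of the length of Col4a1, and 0.982% of that of Col4a2 overlaps Col4a1 or Gm15419.

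The X-linked pair changed least. Col4a5, the chain common to the networks with Col4a3 and Col4a4 and with Col4a6, had 6091, 5624 and 5835 reads in control and 9982, 11035 and 9561 in induced libraries. Its FPKM was 45.5, 42.2 and 43.2 in control and 78.9, 86.1 and 74.5 in induced libraries, a log2 fold change of 0.86 (SE 0.054). Induced 2 was the highest of the induced libraries, and the groups stayed apart. Col4a6 had 3671, 3573 and 3758 reads in control and 5797, 5885 and 5953 in induced libraries. Its FPKM was 23.1, 22.6 and 23.4 in control and 38.6, 38.7 and 39.1 in induced libraries, a log2 fold change of 0.74 (SE 0.045). The induced libraries were nearly level for Col4a6, with a coefficient of variation of 0.638%, the lowest of the 12 sets of replicates. Larger log2 fold changes were found for 11.1% of tested genes in the case of Col4a5 and 13.3% in that of Col4a6.

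**Figure D2:**
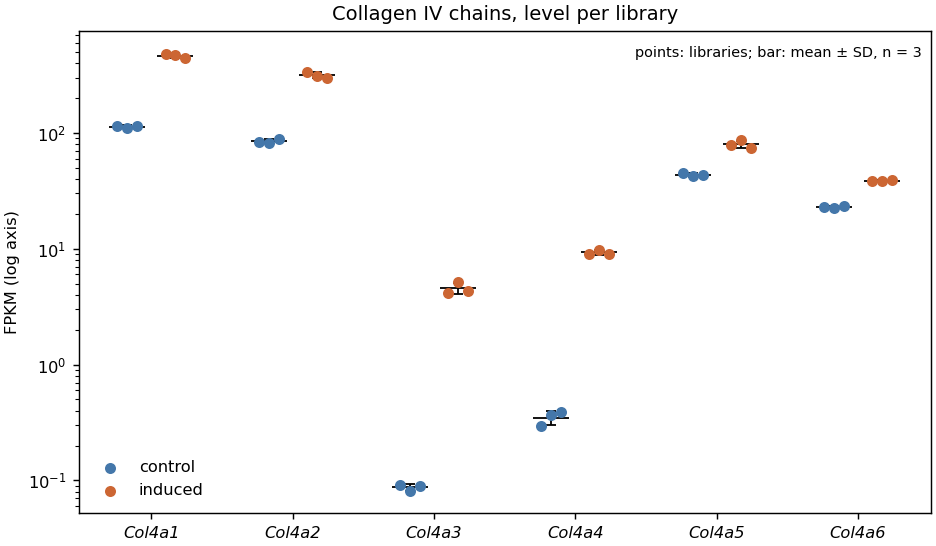
Level of each collagen IV chain in every library, as FPKM on a log axis, with control libraries in blue and induced libraries in orange. Bars give the mean ± SD of 3 libraries. The groups are apart for all 6 chains, by the widest margin for Col4a3 and Col4a4, and Col4a1 is highest and Col4a3 lowest in both groups.

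Per length, the order of the chains was the same in both groups. In control cells the mean FPKM was 113.5 ± 3.17 for Col4a1, 84.8 ± 3.62 for Col4a2, 43.6 ± 1.72 for Col4a5, 23.0 ± 0.437 for Col4a6, 0.349 ± 0.0498 for Col4a4 and 0.0871 ± 0.00543 for Col4a3 (SD, n = 3). In induced cells it was 465.5 ± 22.7 for Col4a1, 315.4 ± 18.1 for Col4a2, 79.8 ± 5.85 for Col4a5, 38.8 ± 0.258 for Col4a6, 9.28 ± 0.395 for Col4a4 and 4.56 ± 0.52 for Col4a3 (SD, n = 3). No neighbours in this order overlapped in either group. Col4a3 and Col4a4 therefore remained the scarcest chains after induction, although they had changed most.

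The make-up of the collagen IV transcripts shifted toward Col4a1 and Col4a2. Reads of the 6 chains took 0.188% to 0.196% of all reads in control libraries and 0.611% to 0.667% in induced ones. As a share of the sum of the 6 chains, with counts divided by gene length, Col4a1 and Col4a2 together went from 74.7% ± 0.516 to 85.5% ± 0.688 (SD, n = 3). Col4a5 and Col4a6 together went from 25.1% ± 0.531 to 13.0% ± 0.576, although the level of each was higher in induced cells. Col4a3 and Col4a4 together went from 0.164% ± 0.0185 to 1.52% ± 0.112 and stayed the smallest part. Transcripts of Col4a5 outnumbered those of Col4a3 501.5 ± 20.3 times in control and 17.6 ± 1.14 times in induced cells, per kilobase, and those of Col4a4 127.2 ± 24.3 and 8.59 ± 0.325 times (SD, n = 3). The ratio of Col4a1 to Col4a5 rose from 2.6 ± 0.0765 to 5.84 ± 0.335. These are ratios of RNA, and protein was not measured here.

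**Figure D3:**
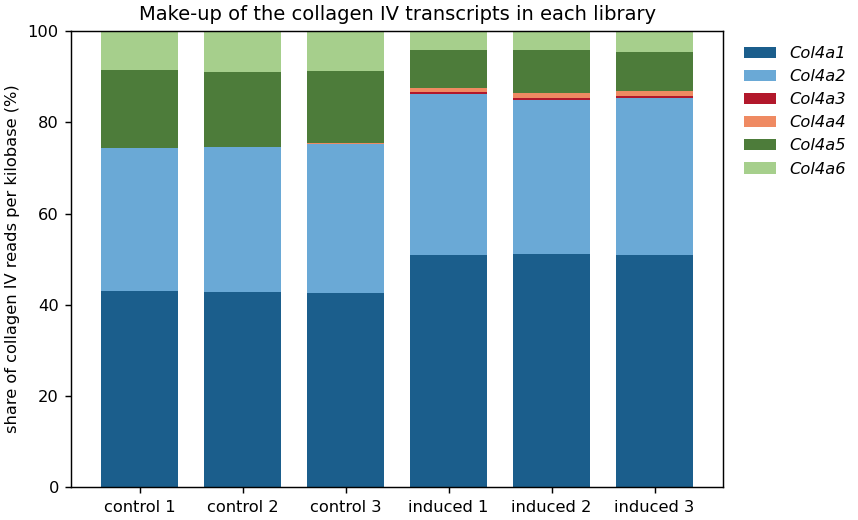
Share of each collagen IV chain in the sum of the 6 chains, in percent of reads per kilobase, as 1 stacked bar per library. Col4a1 and Col4a2 fill 74.3% to 75.3% of the control bars and 84.9% to 86.2% of the induced bars, and Col4a3 and Col4a4 are visible only as thin bands in the induced libraries.

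Within each pair the partners kept close to each other, with the Col4a3/Col4a4 pair as the exception. The ratio of Col4a1 to Col4a2, per kilobase, was 1.37, 1.35 and 1.31 in control and 1.45, 1.51 and 1.47 in induced libraries, a difference of 0.14 on the log2 scale with groups that did not overlap. The ratio of Col4a5 to Col4a6 was 1.97, 1.87 and 1.84 in control and 2.04, 2.23 and 1.91 in induced libraries, a log2 difference of 0.12 with groups that overlapped. The ratio of Col4a3 to Col4a4 was 0.309, 0.221 and 0.231 in control and 0.461, 0.529 and 0.479 in induced libraries, a log2 difference of 0.96, and these groups did not overlap. Col4a3 thus gained on Col4a4, with only 16 to 18 control reads per library behind the lower end of that ratio.

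Similarity over the 6 libraries was measured as the distance between log2 CPM profiles, each centred on its control mean, among 9460 other genes with a mean of at least 10 CPM (TMM-scaled). Among these, Col4a2 ranked 21 in nearness to Col4a1, and Col4a1 ranked 21 in nearness to Col4a2. Col4a4 ranked 11 for Col4a3, and Col4a3 ranked 18 for Col4a4. Col4a6 ranked 211 for Col4a5, and Col4a5 ranked 412 for Col4a6, where the changes were small and many genes lay close by. The 3 nearest genes were Rhpn2, Prnp and Nuak2 for Col4a1, Hcn2, Itgb5 and Plekhb2 for Col4a2, Pcsk5, Cntn2 and Bmp3 for Col4a3, Pdlim3, Cyp27a1 and Dock8 for Col4a4, Atp11a, App and Tgfbr2 for Col4a5, and Rab5b, Smtn and Scarb2 for Col4a6. The distance is set mainly by the size of the change between groups.

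The nearest genes beside the Col4a3/Col4a4 and Col4a1/Col4a2 pairs had smaller fold changes than the chains themselves. The chains were chosen on this contrast and their neighbours were not, so nothing is read from that difference. Of the nearest 3 tested protein-coding genes on each side of each pair, 18 in all, 11 were called higher, 5 lower and 2 neither, where 32.6% of all genes tested were called higher and 32.2% lower. Distances in kb run from the outer end of the pair, where a chain gene ends, and not from its start region. From the start of the pair, the starts of Rhbdd1, Mff, Rab20 and Atg4a lay at -270.4, 138.0, 165.9 and -517.2 kb (minus: toward lower coordinates). At the Col4a3/Col4a4 locus, Rhbdd1, a rhomboid-like protease gene 3.06 kb away, had a log2 fold change of 1.05 (SE 0.053, edgeR adjusted p 4.65e-12), and Mff, for a receptor of mitochondrial fission 2.83 kb away on the other side, one of 0.3 (SE 0.054, edgeR adjusted p 7.67e-05). Beyond these, Irs1 had 0.89, with 30.9% of its exon bases overlapping another gene, Pid1 had 0.99, Dock10 had -1.72, and Agfg1 had 0.05 and was not called (edgeR adjusted p 0.45). At the Col4a1/Col4a2 locus, Rab20, a small GTPase gene 4.23 kb away, had 0.64, with 25.6% of exon bases overlapping another gene, and Naxd, Irs2, Tnfsf13b and Abhd13 had 0.85, 0.43, 0.71 and 0.34, while Cars2 had -0.4. At the Col4a5/Col4a6 locus, the autophagy gene Atg4a, 1.13 kb away, had a log2 fold change of 0.6 (SE 0.122, edgeR adjusted p 0.000294), close to the values of its neighbours Col4a5 and Col4a6. Farther out, Psmd10, Acsl4 and Tmem164 had -0.22, -0.14 and -0.24, and Nxt2 had -0.07 and was not called (edgeR adjusted p 0.625). The calls of Acsl4 and Psmd10 were lost under some settings. Tex13b had 0 reads in control and 51 in induced libraries, at least 17.7-fold higher against 3 counts over the control group. Within 2 Mb, the median log2 fold change of the other tested genes was 0.22 over 24 genes at Col4a1/Col4a2, 0.3 over 7 genes at Col4a3/Col4a4 and -0.02 over 20 genes at Col4a5/Col4a6, also with Tex13b at its bound, against -0.01 over all genes. The highest of the 24 genes at Col4a1/Col4a2 was Proz, with 2.18 (SE 0.416), which was above both chains of that pair.

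**Figure D4:**
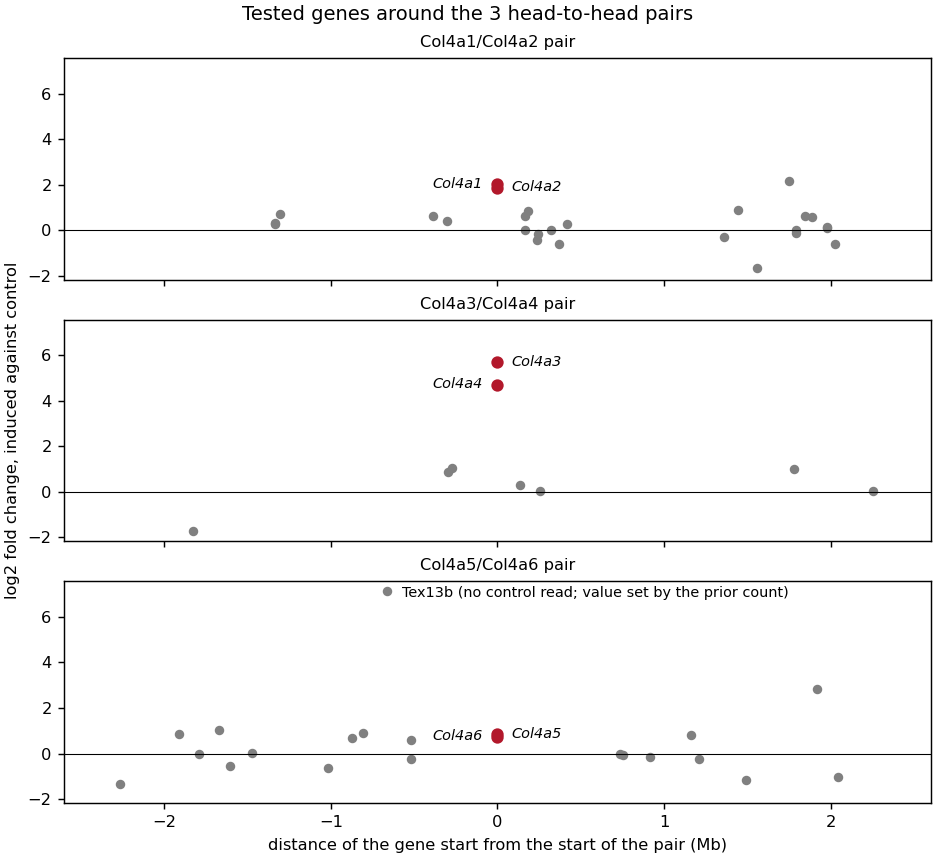
Log2 fold change, induced against control, of the tested genes around each head-to-head pair (vertical axis) against the distance of the gene's start from the start of the pair in Mb (horizontal axis). Red points are the chains and grey points the other genes within 2 Mb of the pair. Col4a3 at 5.69 and Col4a4 at 4.72 stand above all 7 grey genes of their panel, whereas Col4a5 and Col4a6 lie among the genes of theirs. In the Col4a1/Col4a2 panel, Proz at 2.18 lies above Col4a1 at 2.02 and Col4a2 at 1.88. The chains, unlike the grey genes, were chosen on this contrast. The value plotted for Tex13b, which had no control read, depends on the prior count and is no bound.

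Genes that build, export, link, bind and degrade the network were described from 9 lists with 92 members, of which 82 had enough reads. Of these, 42 were called higher and 20 lower, with a median log2 fold change of 0.25, where 32.6% of all genes were called higher and 32.2% lower, with a median of -0.01. The counts of single lists are set against those shares, and with so few members a list can depart from them by a handful of genes. P-values in the following paragraphs are Benjamini-Hochberg adjusted values of edgeR's quasi-likelihood test over all genes tested.

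Enzymes and chaperones of collagen folding, which hydroxylate proline and lysine and guard the helix, were mixed. Of 16 tested, 8 were called higher and 4 lower, with a median of 0.14. Plod2, a lysyl hydroxylase, rose by 1.09 (SE 0.051, adjusted p 1.34e-12), and P4hb, the shared subunit of prolyl 4-hydroxylases, by 0.65 (SE 0.037, adjusted p 2.52e-11). P4ha3, a catalytic subunit of these enzymes, fell from 91.7 ± 3.85 to 21.8 ± 1.33 CPM (SD, n = 3; adjusted p 2.6e-15). Serpinh1, the collagen chaperone HSP47, rose by 0.39 (adjusted p 2e-07). P3h2, a prolyl 3-hydroxylase that acts on collagen IV, had 3 reads in control and 5 in induced libraries and was not tested.

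Of 8 genes for the export of large procollagens from the endoplasmic reticulum, 2 were called higher and 2 lower, with a median of 0.04. The higher count was 1 without control 1, control 2 or induced 3, and with DESeq2, limma, library totals alone, no filter or an adjusted p of 0.01. Sar1b, a GTPase of the vesicle coat, rose by 0.37 (adjusted p 1.38e-05). The coat subunits Sec24d and Sec23a had log2 fold changes of -0.24 and -0.23 (adjusted p 0.000413 and 0.00148). Mia3, the cargo receptor TANGO1, had 0.08 and was not called (adjusted p 0.285).

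Among cross-linking enzymes, 4 of 7 were called higher and 2 lower, with a median of 0.3. The lower count was 1 without control 1, control 2 or induced 3, with limma and at an adjusted p of 0.01. Pxdn, the peroxidasin that forms the sulfilimine bonds of collagen IV, went from 179.4 ± 4.51 up to 244.0 ± 9.58 CPM (SD over 3 libraries), a rise of 0.44 on the log2 scale (adjusted p 2.09e-07). Loxl2, a lysyl oxidase that acts on collagen IV, rose by 1.12 (SE 0.048, adjusted p 4.6e-13), and Loxl4, of the same family, had -0.95 (SE 0.067, adjusted p 4.65e-10). Tgm2, a transglutaminase, had 0.68 (adjusted p 2.69e-09), with 21.8% of its exon bases overlapping other genes.

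Laminins form the other main network of basement membranes, and their chains moved in both directions. Of 10 tested, 7 were called higher and 2 lower, with a median of 0.93. Lamb2 rose from 241.9 ± 6.77 to 548.2 ± 28.9 CPM, whereas Lamb1 fell from 460.4 ± 11.7 to 175.6 ± 7.84 CPM (SD, n = 3; adjusted p 2.45e-13 and 2.05e-14). Lama4 fell by 1.55 on the log2 scale (SE 0.052, adjusted p 1.25e-14). Lama3 and Lamb3, chains of the epithelial laminin of the skin, had 4 and 17 reads in control and 62 and 101 in induced libraries; they were chosen after their values were seen.

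The other components of basement membranes had 6 of 12 genes called higher and 4 lower, with a median of 0.19. The nidogens, which bridge laminin and collagen IV, went opposite ways, with Nid1 at -1.06 (SE 0.052, adjusted p 2.55e-12) and Nid2 at 0.63 (SE 0.045, adjusted p 7.32e-10). The heparan sulfate proteoglycan Hspg2, or perlecan, rose by 0.3 (adjusted p 6.84e-06), and Agrn, or agrin, by 1.21 (SE 0.051, adjusted p 3.44e-13). Sparc, a collagen-binding matricellular protein, rose from 3400.0 ± 25.1 to 6978.7 ± 194.2 CPM, and its relative Smoc2 from 7.46 ± 0.455 to 45.3 ± 1.26 CPM (SD, n = 3; adjusted p 2.56e-14 and 3.84e-15).

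Receptors for collagen had 6 of 9 genes called higher and 1 lower, with a median of 0.45. Itga1, the alpha subunit of the integrin that prefers collagen IV, went from 14.0 ± 0.873 up to 40.0 ± 4.07 CPM (SD over 3 libraries), a rise of 1.51 on the log2 scale (adjusted p 2.59e-11), and its partner Itgb1 rose by 0.45 (adjusted p 3.52e-08). Itga2, the alternative alpha subunit, had 7 reads in control and 9 in induced libraries and was not tested. Adgrg6, an adhesion receptor that binds collagen IV, rose by 1.38 (SE 0.116, adjusted p 6.77e-09). The receptor kinases Ddr1 and Ddr2 rose by 0.89 and 0.21 (adjusted p 5.97e-12 and 0.00202).

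Of the degrading enzymes, 5 of 8 were tested, 4 were called higher and the median was 0.41, while Mmp10 was at a log2 fold change of 0.0 (adjusted p 0.971). Mmp3 rose by 0.72, the membrane-bound Mmp14 by 0.41, and the gelatinase Mmp2 by 0.28 (adjusted p 7.78e-11, 7.27e-08 and 0.000186). Mmp15 rose from 0.909 ± 0.15 to 2.46 ± 0.149 CPM (SD, n = 3; adjusted p 9.95e-05). Mmp9, the other gelatinase, had 4 reads in control and 7 in induced libraries and was not tested. Their inhibitors had 3 of 5 genes called higher and 1 lower. Timp3, which is held in the matrix, rose by 2.03 (SE 0.044, adjusted p 3.86e-17) to 2478.3 ± 118.3 CPM, with 21.3% of its exon bases overlapping Syn3, Timp2 rose by 0.8 (adjusted p 1.49e-12), and Timp1 had -0.71 (adjusted p 1.26e-09).

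Regulators known for collagen genes had 2 of 10 members called higher and 4 lower, with a median of -0.06. Tgfb2, a ligand of the TGF-beta pathway, rose by 1.67 on the log2 scale (SE 0.081, adjusted p 2.52e-12). The signal carriers Smad1 and Smad3 had log2 fold changes of -0.7 and -0.39 (adjusted p 1.85e-08 and 3.24e-06). Lmx1b, a transcription factor known for control of Col4a3 and Col4a4 in podocytes, had 0 reads in control and 2 in induced libraries, which is under the limit of 3 counts.

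**Figure D5:**
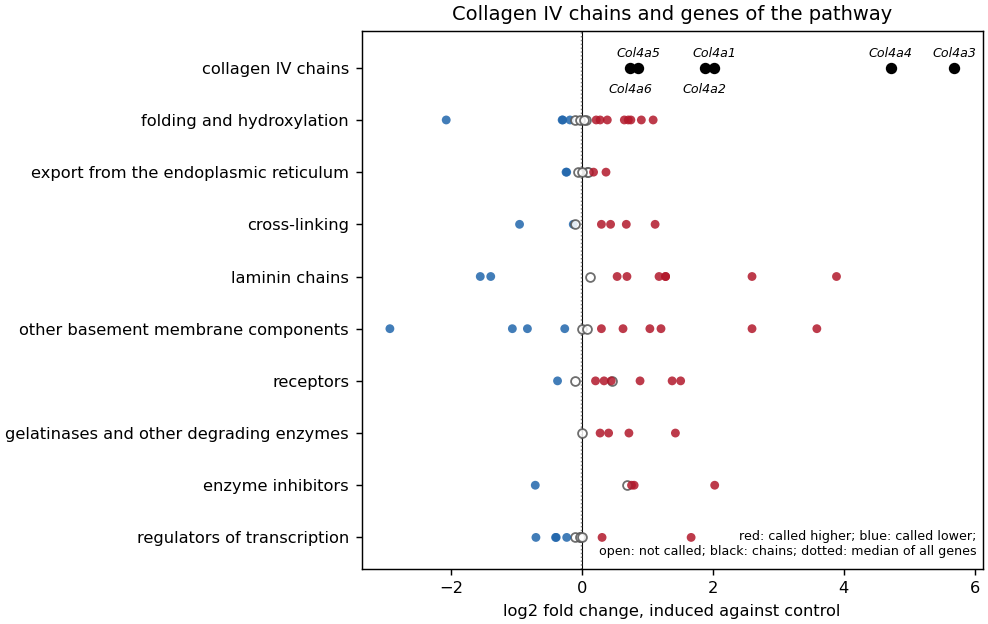
Log2 fold change, induced against control (horizontal axis), of the 6 collagen IV chains in black and of the tested genes of 9 pathway lists, 1 row per list. Red points were called higher, blue points lower and open points neither, and the dotted line is the median of all tested genes at -0.01. The chains lie between 0.74 and 5.69, while every list but that of the degrading enzymes holds both red and blue points.

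Markers of other cell types were summed per library, as CPM, and ranges are over the 3 libraries of a group. Counts of members called, here and in the next paragraph, are set against 32.6% of all genes tested called higher and 32.2% called lower. In these bulk libraries, fewer cells of a type and less RNA per cell cannot be told apart. Of 8 endothelial markers, 2 were tested and 1 was called higher, and the sum was 9.81 to 11.1 in control and 12.7 to 13.1 in induced libraries. Egfl7 was called, with a log2 fold change of 0.37 and 11.2% of its exon bases overlapping other genes, and Vwf was not. Among the untested members, Tie1 was at 0, and Pecam1 and Cdh5 had 6 and 1 reads in all induced libraries. Tek had 3, 2 and 2 reads in control and 9, 10 and 13 in induced libraries. Kdr had 6, 2 and 3 reads in control and 1, 0 and 4 in induced libraries, and Emcn had 1 read in control and 0 in induced libraries. Schwann cell markers summed to 1.02 to 1.52 and 2.05 to 2.57, with 1 of 2 tested called higher, 1 lower, and Sox10 and Foxd3 at 0. Adipocyte markers summed to 5.96 to 6.96 and 5.36 to 6.74, with the 1 tested not called. Leukocyte markers summed to 25.9 to 28.8 and 25.3 to 27.9, with 1 of 3 called higher, 1 lower, and Ptprc, Tyrobp, Cd52 and Itgam at 0. The sum of pericyte and smooth muscle markers fell from 994.5 to 1059.0 down to 491.5 to 550.2, with 1 of 6 called higher and 5 lower. Most of this sum came from Acta2, with a mean of 944.1 CPM in control and 489.0 CPM in induced libraries. The marker called higher was Myh11, of smooth muscle, with a log2 fold change of 2.79, so these markers did not all move together. Fibroblast markers had 5 of 7 called higher and 2 lower, with sums of 18704.8 to 19746.6 and 22771.0 to 24030.6.

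Markers of 3 further kinds also differed between the groups. Epicardial and mesothelial markers, which mark the tissue the line was grown from, had 6 of 8 called higher and 2 lower. Their sum went from 677.4 to 708.5 up to 2203.2 to 2276.7 CPM, most of it from Upk3b and Lrrn4. The markers called lower were Krt19 and Tbx18, with log2 fold changes of -1.24 and -0.33. Cardiomyocyte markers went from 13.1 to 16.1 up to 58.9 to 62.7 CPM, nearly all from Tnnt2, while Myh6 had 0 reads in control and 1 in induced libraries and Myh7 had 3 and 4. Of the 2 tested, Tnnt2 was called higher, while Tnni3 had a log2 fold change of 0.41 and was not called. Ryr2 of the same list, too low to be tested, had 0, 0 and 1 reads in control and 9, 10 and 10 in induced libraries. Actc1, also too low, had 6 reads in control and 4 in induced libraries, Nppa had 0 and 4, and Pln had 0 and 1. Markers of dividing cells fell from 747.6 to 776.0 down to 224.3 to 234.9 CPM, with 8 of 8 called lower, where 32.2% of all genes tested were. The part of these shifts in the levels of the collagen IV chains was not tested.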

How the data were processed

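Per the labels, total RNA of iCDCs was converted to libraries with an NEBNext Ultra kit. The submitters' processing notes name HISAT2 2.0.5, featureCounts 1.5.0-p3, DESeq2 1.16.1 and the build mm10, without roles, and the methods of the study name another DESeq version. The authors deposited raw read counts per gene and library, and FPKM values, in which each count is scaled by gene length and by 1 depth per library (0.98 to 1.03 times its total). Columns of the authors' own comparison and their Gene Ontology tables were not used. Total counts were 19041133 to 19823369 per library, and a count of 0 allows up to 0.151 to 0.158 CPM, taking 3 counts as the limit and covering counting error only. Libraries of a group differed by more than sampling noise, so none was merged.

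Counts were filtered with filterByExpr (minimum count 10, minimum total 15), which kept 14246 genes, scaled by TMM and tested with edgeR 4.0.16 in R 4.3.3 (two-sided quasi-likelihood test, intercept and group, Benjamini-Hochberg adjustment at 0.05). Alternatives used DESeq2 1.42.0, limma 3.58.1 on log2(FPKM + 1) and log2(FPKM + 0.1), other scalings and filters, an adjusted p of 0.01, a replicate block and leaving out each library. The test was tried on simulated counts first. Named genes are the 6 chains, the 3 tested members of each list with the smallest p, a set of partners written down with the lists, the neighbours of the loci and the 3 genes nearest to each chain. The members and lists were chosen with earlier results of these data known. Exon overlaps were counted in the GENCODE M21 annotation, and 98.3% of the gene IDs it shares with the table had the same coordinates. Promoter windows came from RefSeq (GRCm38.p6) and covered 5 of the 6 chains. Protein sequences were not analysed here.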

Additional observations from a re-analysis of the deposited data

How the results depend on the processing

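The 6 chains kept their direction and stayed past an adjusted p of 0.05 under all 15 alternatives. As the chains were chosen on this contrast in the same libraries, this describes the dependence on processing only. The log2 fold changes ranged from 1.99 to 2.07 for Col4a1, 1.84 to 1.93 for Col4a2, 0.81 to 0.92 for Col4a5 and 0.7 to 0.76 for Col4a6. They fell to 2.35 for Col4a3 and 2.93 for Col4a4 with limma on log2(FPKM + 1), where the added 1 exceeds their control levels, and reached 5.75 and 4.81 at most. The number of genes called was 7783 at an adjusted p of 0.01 and otherwise 8514 to 9765. Of 72 other named genes, none reversed in direction where it was called in the main fit or in the alternative. Changes of sign in genes called in neither were not counted. Agfg1, for example, had 0.05 in the main fit and -0.01 without induced replicate 2. The call of Acsl4 was lost in 11 settings, with an adjusted p of 0.162 without induced replicate 1 as the highest, and that of Psmd10 at an adjusted p of 0.01 and without control replicate 1 (adjusted p 0.0613). The members called higher in the export list fell from 2 to 1 with DESeq2, library totals alone, either limma scale, no filter and an adjusted p of 0.01, and ranged from 1 to 2 when a library was left out, with 1 without control 1, control 2 or induced 3. The members called lower in the cross-linking list fell from 2 to 1 with either limma scale and an adjusted p of 0.01, and ranged from 1 to 2 when a library was left out, with 1 without the same 3 libraries. Without division by gene length, the shares in control and induced cells became 44.8% and 53.0% for Col4a1, 29.7% and 31.9% for Col4a2, 0.0459% and 0.694% for Col4a3, 0.196% and 1.51% for Col4a4, 15.5% and 8.19% for Col4a5 and 9.72% and 4.73% for Col4a6.

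Over all tested genes, libraries with the same number did not deviate together (correlations of -0.002, -0.015 and 0.027). A pairing that touches only few genes would not show in these correlations. With a replicate block 9063 genes were called, against 9225 without, and all 6 chains were called. Depth limits Col4a3 most, with 16 to 18 reads in each control library.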
